A study of Homo sapiens with 5 samples.

Results

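Keratin-associated proteins are small proteins of the hair shaft that surround and cross-link the keratin filaments there, most of them through many cysteines and a smaller class through glycine and tyrosine. Their genes, named KRTAP with a family number and a member number, lie side by side in tight clusters and are known for expression in the cortex and cuticle of the growing hair, after the hair keratins. A mammary epithelial cell is not known to build hair, so the genes give a set of tissue-restricted promoters whose chromatin can be read in a cell of another tissue.

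All protein-coding genes of GENCODE release 44 whose symbol is KRTAP followed by a digit were taken, which gave 94 genes of the 19663 protein-coding genes examined, in 26 families. Each of the 94 genes had 1 exon and 1 transcription start site (TSS) among its protein-coding transcripts. The data were 1 list of 181723 hotspots, which are stretches of the genome with more transposase insertions than their surroundings, from ATAC-seq of MCF10A cells. MCF10A is an established line of immortalised, non-tumorigenic human mammary epithelial cells. It was kept without further treatment below passage 30 at 37°C in 5% CO2, in DMEM with 5% horse serum, 20 ng/ml EGF, 0.5 μg/ml hydrocortisone, 100 ng/ml cholera toxin, 10 μg/ml insulin and penicillin/streptomycin. The list was called on 5 replicates together, so no value has a replicate error, no test between groups of samples was possible and the depth is unknown.

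The mammary label was checked against marker genes. A hotspot within 1000 bp of a TSS, here called a promoter hotspot, was listed for 5 of 7 basal mammary genes (KRT5, KRT17, LAMA3, ITGB4 and EGFR, but neither KRT14 nor TP63) and for 4 of 5 luminal genes (KRT8, KRT18, GATA3 and ELF5, but not KRT19). It was listed for neither of 2 immune genes (PTPRC, CD3E), for neither of 2 hepatocyte genes (ALB, APOB) and for 2 of 6 hair shaft genes (HOXC13 and KRT86, but not KRT31, KRT33A, KRT35 or KRT85). Over all protein-coding genes the share was 74.9%, so the basal and luminal counts lie near the background and do not by themselves mark the cell type.

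The KRTAP genes fell into 5 clusters, taken as runs of KRTAP genes with under 1 Mb between neighbours. The short arm of chromosome 11 held 6 genes, KRTAP5-1 to KRTAP5-6 (chr11:1584342-1697755 in hg38), and the long arm held the other 5 members of that family (chr11:71527267-71603353). The KRTAP5 proteins are of the ultra-high-sulfur type found in the hair cuticle. Chromosome 17 held 34 genes (chr17:40993430-41315710), among them the high-sulfur families KRTAP1 to KRTAP3 and the ultra-high-sulfur families KRTAP4 and KRTAP9, between 2 groups of type I keratin genes. The cluster of chromosome 21 nearer the centromere held 33 genes (chr21:30281309-31038476), of which 22 belonged to the high glycine-tyrosine families KRTAP6, 7, 8, 19, 20, 21 and 22. The cluster nearer the telomere held the 16 genes of the families KRTAP10 and KRTAP12 (chr21:44538981-44698044), all within the span of TSPEAR, a gene of another family.

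The bases just before the start of 5 members are shown because 4 of them carry a TATA box, which was more frequent among KRTAP promoters than among all promoters, and because they come from both ends of the range of hotspots. They are the 60 bases before the RefSeq start (build GRCh38.p14), on the strand of the gene and written in the direction of transcription, with the letters TATAAA in capitals. KRTAP12-2 (chr21:44666928-44666987, minus strand) and KRTAP13-1 (chr21:30395971-30396030, plus strand) had a hotspot at or beside the start. KRTAP10-6 (chr21:44592506-44592565, minus strand) had the KRTAP promoter hotspot with the highest score and no match to TATAAA in these bases. KRTAP19-7 (chr21:30561315-30561374, minus strand) and KRTAP1-5 (chr17:41027209-41027268, minus strand) were the members with the match in place that lay farthest from a hotspot, over all clusters and on chromosome 17, at 79232 and 17956 bp.

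KRTAP12-2: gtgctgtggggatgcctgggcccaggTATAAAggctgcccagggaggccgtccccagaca
KRTAP13-1: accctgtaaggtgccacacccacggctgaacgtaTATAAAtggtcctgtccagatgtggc
KRTAP10-6: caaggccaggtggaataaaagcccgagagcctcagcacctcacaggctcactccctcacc
KRTAP19-7: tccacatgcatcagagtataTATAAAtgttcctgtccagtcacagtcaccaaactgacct
KRTAP1-5: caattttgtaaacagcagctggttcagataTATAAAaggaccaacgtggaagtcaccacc

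The match began 34 bases before the start in KRTAP12-2 (position -34), at -26 in KRTAP13-1, at -40 in KRTAP19-7 and at -30 in KRTAP1-5. A positioned TATAAA, on the strand of the gene and beginning 20 to 40 bases before the start, was found in 34 of the 80 KRTAP promoters in the RefSeq table (42.5%) and in 3.70% of all 15307 promoters in it. All 80 RefSeq starts were within 10 bp of the GENCODE TSS. Anywhere in the 300 bases from 250 before to 50 after the start, on either strand, TATAAA was found in 64 of 80 KRTAP promoters (80.0%), against 9.64% of all promoters. The keratin genes and the other gene groups compared below also had it more often than all promoters. The match was about as common in members with a hotspot as in those without one. It was positioned in 7 of 16 members with a promoter hotspot (43.8%) and in 27 of 64 members without one (42.2%).

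Few KRTAP genes had open chromatin at the start. A promoter hotspot was listed for 19 of 94 KRTAP genes (20.2%, 95% Wilson interval 13.3 to 29.4%), where 14733 of all 19663 protein-coding genes had one (74.9%). Intervals here cover counting error only. All genes together had 78471 TSSs and each KRTAP gene 1, so other genes often had more windows. With the annotated 5′ end of each gene as its single TSS, 20 KRTAP genes (21.3%) and 13383 of all genes (68.1%) had one. Scores were not recomputed in that way. The scores of the KRTAP hotspots were also low. The score is the value that the caller wrote for each hotspot, with no unit, and the highest promoter score of a member had a median of 6.36 over the 19 genes, against 20.7 over all genes with a promoter hotspot. None of the 19 members reached that median of all genes, and 13 were above the median score of all hotspots, 5.81.

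**Figure D1:**
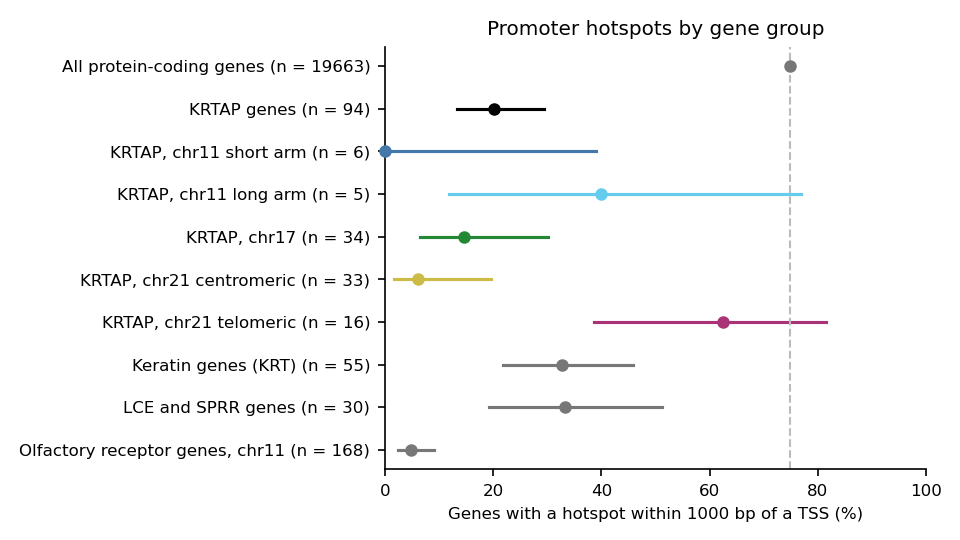
Percentage of genes that have a promoter hotspot (x axis) for all protein-coding genes, the KRTAP genes, their 5 clusters and 3 other gene groups (y axis). Points are shares, bars are 95% Wilson intervals over genes and the dashed line is the share of all protein-coding genes, 74.9%. The telomeric cluster of chromosome 21, at 62.5%, is the KRTAP cluster nearest to the line, and the KRTAP genes as a whole lie at 20.2%.

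The clusters differed widely in this share. On the telomeric side of chromosome 21, 10 of 16 genes had a promoter hotspot (62.5%, interval 38.6 to 81.5%), which was more than in the other 4 clusters together. The long arm of chromosome 11 had 2 of 5 (40%, interval 11.8 to 76.9%) and its short arm 0 of 6 (interval up to 39.0%). Chromosome 17 had 5 of 34 (14.7%, interval 6.45 to 30.1%) and the centromeric cluster of chromosome 21 had 2 of 33 (6.06%, interval 1.68 to 19.6%). The intervals of the telomeric and the centromeric cluster of chromosome 21 did not overlap. The genes are not independent, since 18 of the centromeric ones lie in 1 stretch without a hotspot, and the difference was not tested. Over all genes of these chromosomes the share was 67.2% on chromosome 11, 75.04% on chromosome 17 and 66.7% on chromosome 21.

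In the telomeric cluster, 8 of the 12 KRTAP10 genes and 2 of the 4 KRTAP12 genes had a promoter hotspot, with scores between 5.23 and 10.9. KRTAP10-6 had the highest promoter score of any member, 10.9, above 82.1% of all hotspots. KRTAP10-12 followed with 9.16 and KRTAP10-4 with 8.05. Those were the 3 members of the cluster above 7, and the remaining KRTAP10 genes formed a narrow band below them. KRTAP10-7 had a score of 6.82, KRTAP10-10 of 6.09, KRTAP10-1 of 5.59, KRTAP10-9 of 5.36 and KRTAP10-2 of 5.23. KRTAP12-4 and KRTAP12-2 had the same top score, 5.99. KRTAP12-2 was the one member with 3 promoter hotspots, the others of which scored 4.86 and 4.48. KRTAP10-3, KRTAP10-5, KRTAP10-8, KRTAP10-11, KRTAP12-1 and KRTAP12-3 had none.

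On the long arm of chromosome 11, KRTAP5-9 had a score of 7.69 and KRTAP5-8 of 7.03. On chromosome 17 a promoter hotspot was listed for 3 of 12 KRTAP4 genes (25%, interval 8.89 to 53.2%), 1 of 8 KRTAP9 genes (12.5%, interval 2.24 to 47.1%) and 1 of 4 KRTAP2 genes (25%, interval 4.56 to 69.9%). KRTAP4-16 had a score of 9.63, KRTAP9-1 of 7.12, KRTAP4-6 of 6.56 with a second hotspot at 4.86, and KRTAP4-4 of 4.86. KRTAP2-4, of a high-sulfur family, had 4.48. The families KRTAP1 (4 genes) and KRTAP3 (3 genes), whose products are abundant in the hair cortex, had no promoter hotspot. In the centromeric cluster of chromosome 21 the members with a promoter hotspot were KRTAP21-1 (6.36) and KRTAP13-1 (4.48).

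The KRTAP genes can also be divided by the class of their product. A promoter hotspot was listed for 1 of 22 genes of the high glycine-tyrosine families (4.55%, interval 0.807 to 21.8%), namely KRTAP21-1, and for 18 of 72 genes of the cysteine-rich families (25%, interval 16.4 to 36.1%). The 22 genes all lie in the centromeric cluster of chromosome 21, so class and cluster cannot be told apart across the whole set. Within that cluster the 11 cysteine-rich genes had 1 promoter hotspot (9.09%, interval 1.62 to 37.7%), KRTAP13-1, and the intervals of the classes overlapped.

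The members inside the distance limit and nearest to it were KRTAP4-16 at 654 bp and KRTAP2-4 at 546 bp, and the next, KRTAP10-10 at 343 bp, lay well inside. KRTAP12-3 at 1155 bp, KRTAP5-10 at 1200 bp, KRTAP7-1 at 1537 bp and KRTAP4-8 at 1685 bp lay outside. The limit mattered most on chromosome 17, where 3 of 34 genes had a hotspot within 500 bp (8.82%), 5 within 1000 bp and 6 within 2000 bp. Over all 94 members the distance from the TSS to the nearest hotspot had a median of 8.02 kb.

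Where a KRTAP gene had a promoter hotspot, it mostly lay over the gene and not before it. For 15 of the 19 genes the midpoint of the highest-scoring hotspot was downstream of the TSS (78.9%), against 50.3% of all genes with a promoter hotspot, and a hotspot covered the TSS in 5 of 19 (26.3%) against 77.6%. Those 5 were KRTAP5-8, KRTAP10-4, KRTAP10-9, KRTAP12-2 and KRTAP10-12. Of the 22 promoter hotspots in all, 15 had their midpoint in the coding sequence of the member, 9 lay wholly in it and 4 lay wholly upstream of the TSS. Coding bases made up 74.7% of the bases in these hotspots. The coding counts were not made for all protein-coding genes, so whether they are unusual was not tested. Each member has its coding sequence undivided in its only exon, which leaves little other sequence for the downstream hotspots. The upstream ones were those of KRTAP2-4, KRTAP4-16, KRTAP4-6 and KRTAP12-2, so that on chromosome 17 the median midpoint was 416.5 bp before the TSS (-416.5 bp), while in the telomeric cluster it was 315 bp after it. None of the 22 lay within 1000 bp of a TSS of another protein-coding gene, and TSSs of noncoding genes and pseudogenes were not examined for this.

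**Figure D2:**
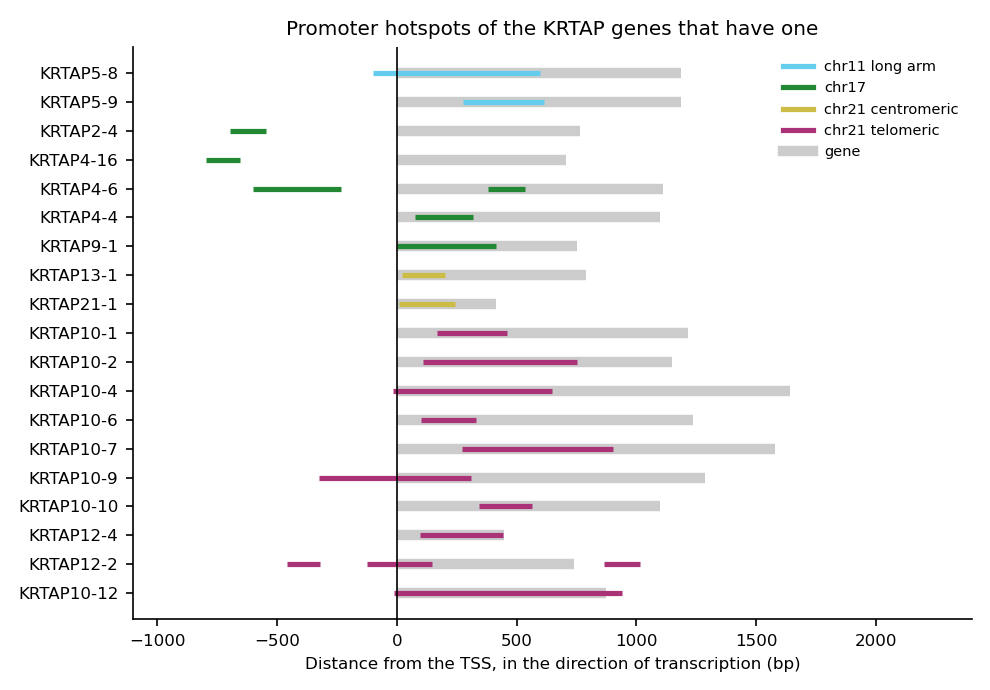
Promoter hotspots (coloured bars, by cluster) of the 19 KRTAP genes that have one, against the distance from the TSS in bp along the direction of transcription (x axis), with each gene as a grey bar from its TSS. Most coloured bars lie to the right of the TSS over the gene, and the bars wholly to its left belong to KRTAP2-4, KRTAP4-16, KRTAP4-6 and KRTAP12-2.

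The hotspot of KRTAP10-6 is given as 1 example. It had the highest score and the highest G+C content of the KRTAP promoter hotspots, so it is not typical of them. Its central 120 bases (hg38 chr21:44592230-44592349, minus strand) lie within the coding sequence and are given in the direction of transcription without capitals.

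KRTAP10-6 hotspot: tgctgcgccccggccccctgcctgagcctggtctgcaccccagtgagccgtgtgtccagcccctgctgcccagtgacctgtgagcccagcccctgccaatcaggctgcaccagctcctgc

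G and C made up 70.8% of these bases. Their central 31 bases occur 2 times in hg38, and 14.9% of the 75-base words of the whole hotspot occur once, so that most single reads of 75 bases from it have an exact match elsewhere. Across the 22 promoter hotspots the G+C content ran from 42.1% at the upstream hotspot of KRTAP4-6 to 69.3% at KRTAP10-6, with a median of 62.9%, against 62.6% at the promoter hotspots of all genes. They were narrower than those, with a median of 282 bp against 654 bp. Of the 22, 10 had one of the 13 score values that at least 1000 hotspots of the list share (45.5%), such as 4.48 or 5.99, against 10.5% of the promoter hotspots of all genes and 23.2% of all hotspots.

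Counting every hotspot by its nearest TSS widened the view from the start of the genes to their surroundings. Hotspots were assigned to the protein-coding gene with the TSS nearest to their midpoint, up to 100 kb away. KRTAP genes received 123 hotspots. At least 1 was assigned to 43 of 94 members (45.7%, interval 36.0 to 55.8%), against 91.8% of all protein-coding genes, and the median per gene was 0 against 5. These figures were not corrected for the spacing of genes. KRTAP genes lie close together and neighbours divide the hotspots between them, so the comparison is not like for like. Over the clusters together the density of hotspots was 0.872 of the genome value. The 5 members with most held 51 of the 123 (41.5%). Where noncoding genes and pseudogenes competed for the hotspots too, KRTAP genes received 64, at 38 members.

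The members with the most assigned hotspots were the outermost genes of their clusters on the long arm of chromosome 11 and on the telomeric side of chromosome 21. KRTAP5-11 received 20, the most of any member, and 16 of them lay beyond the last gene of its cluster. KRTAP10-1, the first gene of the telomeric cluster, received 15, of which 14 lay before it inside TSPEAR. In the other clusters the most assigned were 5 at KRTAP9-1 on chromosome 17, 4 at KRTAP5-5 on the short arm of chromosome 11 and 4 at KRTAP19-8, the last gene of the centromeric cluster. By cluster, the sums were 36 on the long arm of chromosome 11, 41 in the telomeric cluster, 21 on chromosome 17, 19 in the centromeric cluster and 6 on the short arm of chromosome 11. With noncoding genes and pseudogenes competing, the order changed. The sums were then 11 on the long arm of chromosome 11, 20 in the telomeric cluster, 14 on chromosome 17, 15 in the centromeric cluster and 4 on the short arm of chromosome 11.

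**Figure D3:**
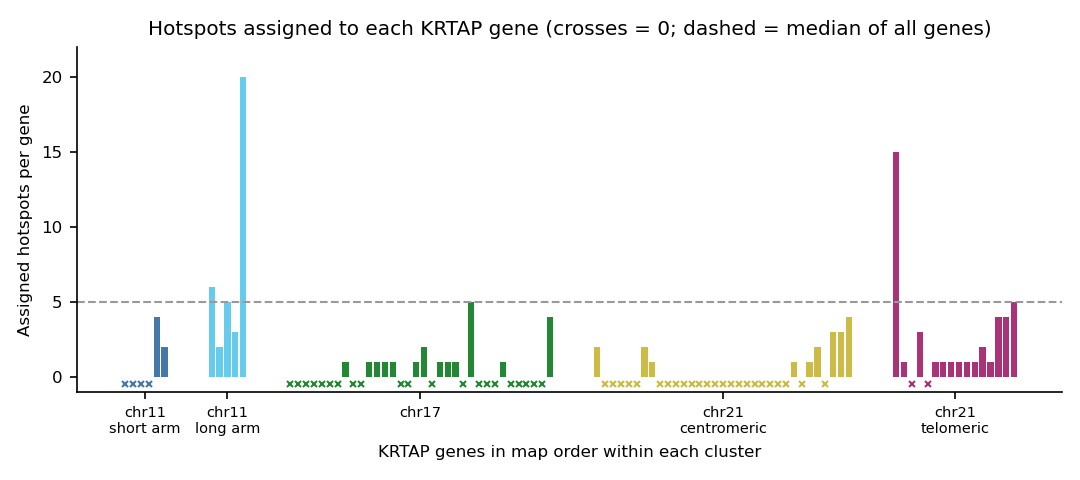
Number of hotspots assigned to each KRTAP gene (y axis, bars) with genes in map order within the 5 clusters (x axis). Crosses mark the 51 members with 0, and the dashed line is the median of all protein-coding genes, 5. KRTAP5-11 with 20 and KRTAP10-1 with 15 stand above the rest, and long runs of crosses cross the chromosome 17 and the centromeric chromosome 21 cluster.

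Of the 123 hotspots, 67 had their midpoint between protein-coding genes, 31 in an intron of TSPEAR and 1 in an exon of it, 6 in an intron of NADSYN1 and 16 in the exon of a KRTAP gene, with 2 more in the annotated span of KRTAP5-11. A hotspot overlapped the gene body in 18 of 94 KRTAP genes (19.1%), where 87.0% of all protein-coding genes had one. That count was not corrected for gene length. Most KRTAP genes are short and leave little room for a hotspot, so these shares are not like for like. The scores of the 123 were close to those of the whole list, with a median of 5.63 against 5.81, and 60 of them were above that value.

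The density of hotspots differed between the clusters too. Between the first and the last gene, the long arm of chromosome 11 held 184 hotspots per Mb and the telomeric cluster of chromosome 21 held 151, which were 2.97 and 2.44 times the 61.9 per Mb of the whole genome. The short arm of chromosome 11 held 52.9 and chromosome 17 held 52.7, or 0.855 and 0.853 of the genome value. The centromeric cluster of chromosome 21 held 21.1 per Mb, 0.342 of the genome value. By covered bases the spread was wider, from 0.458% of the centromeric cluster to 9.23% of the long arm of chromosome 11, with 2.31% in the genome.

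**Figure D4:**
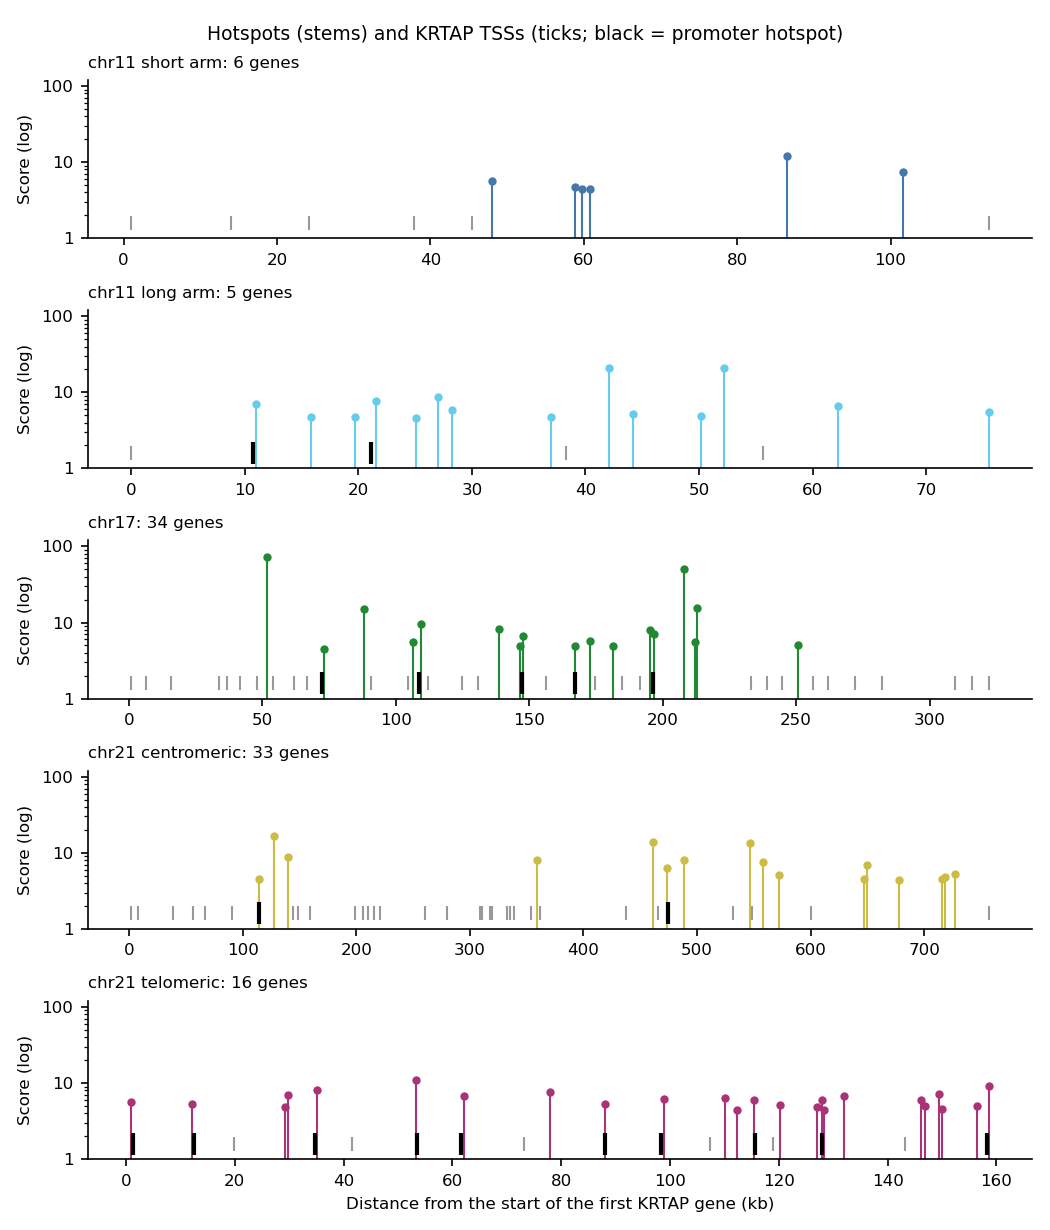
Hotspots (stems, with the score on a logarithmic y axis) and KRTAP TSSs (ticks at the foot) along each of the 5 clusters, against the distance in kb from the start of the first gene (x axis, a different scale in each panel). Black ticks are TSSs with a promoter hotspot and grey ticks those without. The centromeric cluster of chromosome 21 shows a stretch of 219.6 kb without a stem. The telomeric cluster has stems of scores up to 10.9 along its length, closer together towards its end, with empty stretches of up to 17.8 kb.

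Long stretches without any hotspot held many of the members. The longest, of 219.6 kb in the centromeric cluster (chr21:30420994-30640545), held 18 genes from KRTAP13-3 to KRTAP20-2, including 7 of the 8 KRTAP19 genes and all of KRTAP6 and KRTAP22. KRTAP19-6, in the middle of it, was the member farthest from a hotspot, at 98.7 kb. The next stretch of the same cluster, of 121.3 kb, held 6 genes from KRTAP24-1 to KRTAP13-2. On chromosome 17 a stretch of 108.3 kb held the 7 genes of KRTAP3 and KRTAP1, and one of 79.1 kb held 7 genes from KRTAP9-4 to KRTAP17-1. On the short arm of chromosome 11 a stretch of 57.3 kb held KRTAP5-1 to KRTAP5-5. In the telomeric cluster the longest stretch was 17.8 kb and held KRTAP10-5 alone.

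The genes around the clusters were counted in the same way. Of 51 other protein-coding genes within 250 kb of a KRTAP cluster, 23 had a promoter hotspot (45.1%), against 74.9% of all protein-coding genes. On chromosome 17, where these neighbours are keratin genes, 3 of 22 had one (13.6%), which were KRT15 (22.1), KRT23 (7.58) and KRT27 (4.86). Around the other clusters the counts were 8 of 12, 2 of 3, 2 of 3 and 8 of 11, in the order short arm and long arm of chromosome 11, centromeric and telomeric cluster of chromosome 21. These lie near the shares over all genes of chromosome 11 (67.2%) and chromosome 21 (66.7%). TSPEAR, which contains the telomeric cluster, had no promoter hotspot and 5 assigned hotspots. NADSYN1, the last gene before the long-arm cluster, had 3 promoter hotspots with a top score of 27.5, and DHCR7 beside it, an enzyme of cholesterol synthesis, reached 36.8. CLDN8 and TIAM1, on either side of the centromeric cluster, had top scores of 10.1 and 39.0.

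The hotspots with the highest scores near KRTAP genes did not lie at a promoter. On chromosome 17 a hotspot of 11 bp had a score of 73.5, above 99.8% of all hotspots, 2147 bp from the TSS of KRTAP2-1. One of 303 bp had a score of 50.2, 11.5 kb from KRTAP9-1. On the long arm of chromosome 11 the top scores were 21 at 3.44 kb from KRTAP5-11 and 20.9 at 3.77 kb from KRTAP5-10. The top hotspots of the remaining clusters were one of 12.0 at 26.4 kb from KRTAP5-6 and one of 16.5 at 12.9 kb from KRTAP13-1, and in the telomeric cluster the promoter hotspot of KRTAP10-6 itself.

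Some of these hotspots lay in sequence found at more than 1 place in hg38. No 75-base word of the pair on chromosome 17 occurs once, and in each of them at least 1 word reached 250 copies, where counting stopped. The hotspots beside KRTAP5-10 and KRTAP5-11 were less repeated, with 53.5% and 69.3% of their 75-base words found once, and at the hotspot of KRTAP13-1 all words were found once. Of the 123 assigned hotspots, 61 had only such words and 25 had under 50% of them. The words were not counted for the hotspots of all genes, so whether these counts are unusual was not tested.

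The sequence around the starts of the KRTAP genes was mostly found once. The authors called hotspots against positions that can be mapped uniquely. Words of 75 bases, the length of a read, were therefore counted within 1000 bp of the annotated 5′ end of each gene. At KRTAP3-1 and KRTAP5-11 that end differs from the TSS (chr17:41019324 against 41009128, and chr11:71603353 against 71582875). For each member the share of these words that occur once in hg38 was taken. This share had a median of 98.4% over the 94 genes, with the lowest value, 65.6%, at KRTAP9-8, against a median of 100% over all genes. Members without a promoter hotspot had a median of 99.3% (65.6 to 100%) and members with one 94.3% (76.8 to 99.6%). In the centromeric cluster of chromosome 21, the cluster with the fewest hotspots per Mb, the median was 100% and the lowest value 94.3%. Among the 81 members with at least 90%, 13 had a promoter hotspot (16.05%, interval 9.63 to 25.5%), where all genes at that level had 76.6%. Among the 13 members with 50 to 90%, 6 had one (46.2%, interval 23.2 to 70.9%), against 70.6% of all genes at that level. The promoter hotspot of KRTAP4-16, with the score next to that of KRTAP10-6, had 13.5% of its own words found once.

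**Figure D5:**
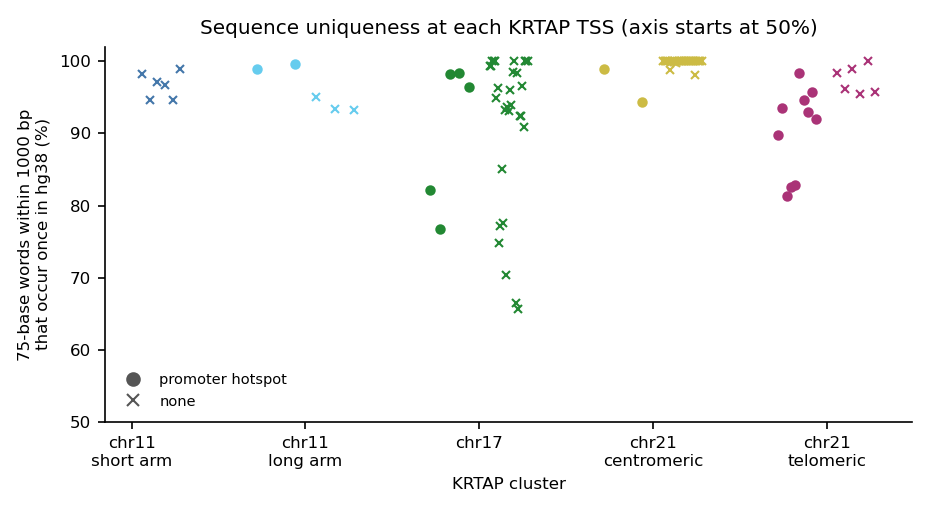
Share of the 75-base words within 1000 bp of the annotated 5′ end of the gene that occur once in hg38 (y axis, percent, starting at 50). Values are for each KRTAP gene by cluster (x axis), with filled circles for genes with a promoter hotspot and crosses for those without. Crosses of the centromeric cluster of chromosome 21 lie at or near 100%, and the lowest crosses, down to 65.6%, belong to chromosome 17.

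The promoters were poor in CpG. In the 300 bases around the start the median number of CpG was 2 over 80 KRTAP promoters against 22 over all promoters, and the median G+C content 42.7% against 63.0%. Of the 70 KRTAP promoters with 0 to 4 CpG, 11 had a promoter hotspot (15.7%, interval 9.01 to 26.0%), and of all promoters in that class 37.4% had one (interval 35.5 to 39.3%). Of the 8 KRTAP promoters with 5 to 9 CpG, 4 had a promoter hotspot (50%, interval 21.5 to 78.5%), against 58.2% of all promoters of that class. Members with a promoter hotspot had a median of 4 CpG and those without one a median of 2.

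Other genes that act in hair and skin were set beside the KRTAP genes. Keratin genes, which encode the filaments themselves, had a promoter hotspot in 18 of 55 cases (32.7%, interval 21.8 to 45.9%). The LCE and SPRR genes, which encode proteins of the cornified envelope of the epidermis, had one in 10 of 30 (33.3%, interval 19.2 to 51.2%). Both intervals overlapped that of the KRTAP genes. Olfactory receptor genes of chromosome 11, a clustered family read in the nose, had one in 8 of 168 (4.76%, interval 2.43 to 9.11%), below the interval of the KRTAP genes. The median number of assigned hotspots was 2 for the keratin genes, 1 for LCE and SPRR and 0 for the olfactory receptors. The promoters of these groups shared traits with those of the KRTAP genes. In the 300 bases around the start, TATAAA was found in 58.8% of 34 keratin promoters and 63.0% of 27 LCE and SPRR promoters. It was found in 35.3% of 133 olfactory receptor promoters. The median number of CpG was 2 for keratin, 2 for LCE and SPRR and 1 for olfactory receptor promoters.

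The hair keratins, the partners of the KRTAP proteins in the shaft, had a promoter hotspot in 2 of 17 cases, KRT81 with a score of 22.98 and KRT86 with 6.995. Both are type II keratins, and none of the 11 type I hair keratins, which lie beside the KRTAP genes on chromosome 17, had one. Of 7 regulators of hair and skin differentiation, 6 had a promoter hotspot, a count near the 74.9% of all protein-coding genes, and GATA3 among them is also a luminal mammary marker. HOXC13, a homeobox factor of hair differentiation, had a top score of 43.5, GATA3 of 33.1, FOXQ1 of 24.8 and MSX2 of 19.8. LEF1, a factor of the Wnt pathway, had 6.69 and FOXN1 4.59, and DLX3 had no promoter hotspot but 7 assigned ones.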

How the data were processed

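ATAC-seq libraries of 5 MCF10A replicates, named only by number in the labels, were sequenced by the authors with paired reads of 75 bases. The authors omitted the detergent IGEPAL CA-630 from the lysis buffer, added washes and kept short fragments by bead selection. Per the labels and the methods, reads were aligned to hg38 with Bowtie2 (no version is given for these alignments), the alignments of all replicates were merged and stripped of duplicates, and Hotspot then listed enriched stretches with its false discovery rate set to 0.01, against positions that map uniquely and without an input library. The unit of the deposited values is a score, as Hotspot wrote it for each hotspot, and it was used only to rank hotspots. What it is relative to is not stated, and no correction for depth or width was made. With 1 pooled list there are no replicate values, so nothing was tested and every comparison is between counts or medians.

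TSSs were those of protein-coding transcripts in GENCODE release 44 (78471 TSSs of 19663 genes). A promoter hotspot overlapped a window reaching 1000 bp to both sides of a TSS. Assignment by midpoint to the nearest TSS within 100 kb placed 73.1% of hotspots. Densities are per Mb of known bases (2938 Mb in all). Words of 75 bases were counted on both strands of hg38. RefSeq promoters (GRCh38.p14) matched 80 of 94 members, and the motifs named in the text were searched in them. Cysteine-rich and high glycine-tyrosine families were told by family number, since the protein sequences were not analysed here. Scripts used Python 3.11.15, numpy 2.4.6, pandas 2.3.3 and numba 0.67.0, and the interval, assignment and word counts were tested on simulated data. The sequences of some hotspots are not reported here.

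The genes and the lists set beside them were chosen with earlier results of these data known. Named are members with a promoter hotspot, those with the most assigned hotspots or the highest-scoring hotspot of a cluster, those nearest the 1000 bp limit, and the members of the hotspot-free stretches, which were chosen after their values were seen. Other genes are named where they border or contain a cluster or stand in a list.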

Additional observations from a re-analysis of the deposited data

How the results depend on the processing

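Of 28 recomputed values for the 5 main counts and densities, 26 stayed within 1.5 times the value reported. The number of hotspots assigned to KRTAP genes fell from 123 to 60 when only hotspots above the median score counted, and to 64 when genes of all types competed for them. The number of KRTAP genes with a promoter hotspot ran from 13 (hotspots above the median score) to 23 (a window of 2000 bp), while all protein-coding genes ran from 13236 to 15494. With the annotated 5′ end of each gene as its single TSS it was 20, against 13383 of all protein-coding genes (68.1%). The number on the long arm of chromosome 11 was then 3. By cluster, 68 of 80 values stayed within 1.5 times. With only hotspots above the median score, chromosome 17 had 3 genes with a promoter hotspot and the centromeric cluster of chromosome 21 had 1. The telomeric cluster then fell from 10 to 7 of 16 genes (43.8%, interval 23.1 to 66.8%), near the 40% of the long arm of chromosome 11. All protein-coding genes had 67.3% in that setting. Covered bases in place of hotspots moved the density relative to the genome to 0.442 on chromosome 17 and to 0.198 in the centromeric cluster of chromosome 21. Leaving out hotspots under 100 bp, an alternative chosen after seeing the data, left 113 assigned hotspots and 19 genes with a promoter hotspot. No paired analysis was possible because the 5 replicates were pooled before hotspots were called, and leaving out a replicate was not possible for the same reason. The depth is unknown, so a missing hotspot says only that none was listed at this depth.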

Other observations

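The KRTAP promoters were also searched, on either strand of the 300 bases around the start, for TGANTCA, the core of AP-1 sites, and for CTTTGA, the core of LEF1 sites. CTTTGA was found in 25 of 80 KRTAP promoters (31.3%), against 10.8% of all promoters. It was found in 32.4% of keratin, 24.8% of chromosome 11 olfactory receptor and 7.41% of LCE and SPRR promoters. By cluster it was found in 13 of 33 promoters on chromosome 17, of which 6 were the KRTAP9 genes, in 10 of 30 in the centromeric cluster of chromosome 21 and in 1 of 15 in the telomeric cluster. TGANTCA was found in 7 of 80 (8.75%), against 5.75% of all promoters. Among KRTAP promoters with a hotspot, 2 of 16 held CTTTGA, and among those without one 23 of 64 did. These are matches of letters in a window, and the clusters also differ in G+C content, with medians of 42%, 38.5% and 55.3% in the same order.

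Pseudogenes of the KRTAP families lay under some of the assigned hotspots. The hotspot of 13.9 nearest to KRTAP21-2 had its midpoint in KRTAP21-4P, and one of 6.67 nearest to KRTAP10-12 had its midpoint in KRTAP10-13P. Some scores recurred through the list, since 4.48 was held by 8035 hotspots of the list, 4.86 by 6853 and 5.99 by 3636. Of the assigned hotspots, 29 of 123 held one of the shared values (23.6%), with none of 36 on the long arm of chromosome 11 and 10 of 19 in the centromeric cluster of chromosome 21.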
